A study of Rattus norvegicus with 16 samples.

Results

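The kidneys of diabetic rats given sinomenine (SIN) at 20 mg/kg were compared with the kidneys of normal rats, gene by gene, to see what differs from normal under the lower of the 2 doses. Sinomenine is an alkaloid of the climbing plant Sinomenium acutum. The comparison took all 4 rats labelled SIN (20 mg/kg) and all 4 rats labelled normal, 8 of the 16 rats of the series, and 15877 of the 35849 genes in the deposited table had enough counts to be tested. All were male Sprague Dawley rats, 6 to 8 weeks old at the start. The SIN (20 mg/kg) rats are called the treated rats below. They had streptozotocin at 45 mg/kg, a compound that destroys the insulin-producing cells of the pancreas, and ate a diet high in glucose and fat. Rats entered the study if their blood glucose was above 16.7 mmol/L. SIN was given by gavage every day for 8 weeks. The normal rats had the buffer alone and an ordinary diet. The other rats of the series were 4 diabetic rats without SIN (DN group) and 4 diabetic rats given SIN at 40 mg/kg, with the same streptozotocin and diet. The study's abstract gives vehicle by gavage for the DN rats, and gavage is not stated for the normal rats. Streptozotocin, diet and SIN therefore differ together between the groups compared here and cannot be told apart. The serial numbers of the libraries run on within each group, so a library batch cannot be told apart from the group either. The hour at which the kidneys were taken, and the part of the kidney, are not given in the sources used here.

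Each rat gave 1 library of mRNA, with 20864027 to 22287517 estimated counts in the normal rats and 19788171 to 25217030 in the treated rats. Levels are given in CPM, a gene's count after scaling for library size, and are not corrected for gene length, so they compare rats and not genes. A difference is given as the log2 fold change of treated over normal rats (log2FC) with its standard error after ±. The first principal component, with 33.8% of the variance of log2 CPM, put the normal rats between -39.8 and -25.4 and the treated rats between 15.9 and 46.2, with treated rat 1 nearest to the normal rats. Markers of the kidney were present in every rat: the summed CPM of 15 proximal tubule genes was 19728 to 26056 in the normal rats and 17026 to 21207 in the treated rats, with no marker at 0 throughout. Markers of the inner medulla varied widely between rats: the 4 that were measured summed to 40.2, 232, 366 and 149.7 CPM in the normal rats and 202, 617, 252 and 409 CPM in the treated rats, lowest in normal rat 1. In bulk tissue, fewer cells of a type and less RNA per cell cannot be told apart.

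In the nephron, the proximal tubule takes back glucose, amino acids and phosphate from the filtrate, secretes organic anions and cations, and makes glucose from lactate and amino acids. In diabetes it meets a large glucose load and works without enough insulin. The kidney also keeps a circadian clock, in which the factors Arntl (Bmal1), Clock and Npas2 drive genes of the Per, Cry, Nr1d and Dbp families. The products of these genes in turn repress or relay the rhythm, so that most of them peak at a time of day opposite to Arntl. Cry1, which peaks late, is counted here with Arntl.

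Against the normal rats, 1009 of the 15877 genes (6.36%) changed at an adjusted p under 0.05, 440 (2.77%) upward and 569 (3.58%) downward. These are the genes that are said to have risen or fallen below. At the study's threshold, which adds a change of at least 2-fold, there were 394 differentially expressed genes (2.48%), 126 higher (0.794%) and 268 lower (1.69%). The 2 groups did not overlap in CPM for 381 of them, against 13.7% of all genes tested. The 394 were chosen by p-value and fold in the same rats, which favours groups apart, so this is no added support. Of the 394, 100 were transcript models without a gene name. Leaving out 1 rat moved the count of 394 to between 275 (without treated rat 2) and 459 (without treated rat 1). It moved the count of 1009 by more than 1.5 times without normal rat 3 (668), normal rat 4 (555), treated rat 2 (551), rat 3 (582) and rat 4 (650). A gene is said to have lost its call where its adjusted p was 0.05 or more in such a fit. Apart from genes of the clock and of ribosomal proteins, no list described below had more than 6 members that moved one way. Counts in each list are to be read beside the shares over all genes, 2.77% upward and 3.58% downward. The brush border (6.67% passed), hypoxia (6.67%) and distal transport (8%) lists, for example, were near the 6.36% of all genes.

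**Figure D1:**
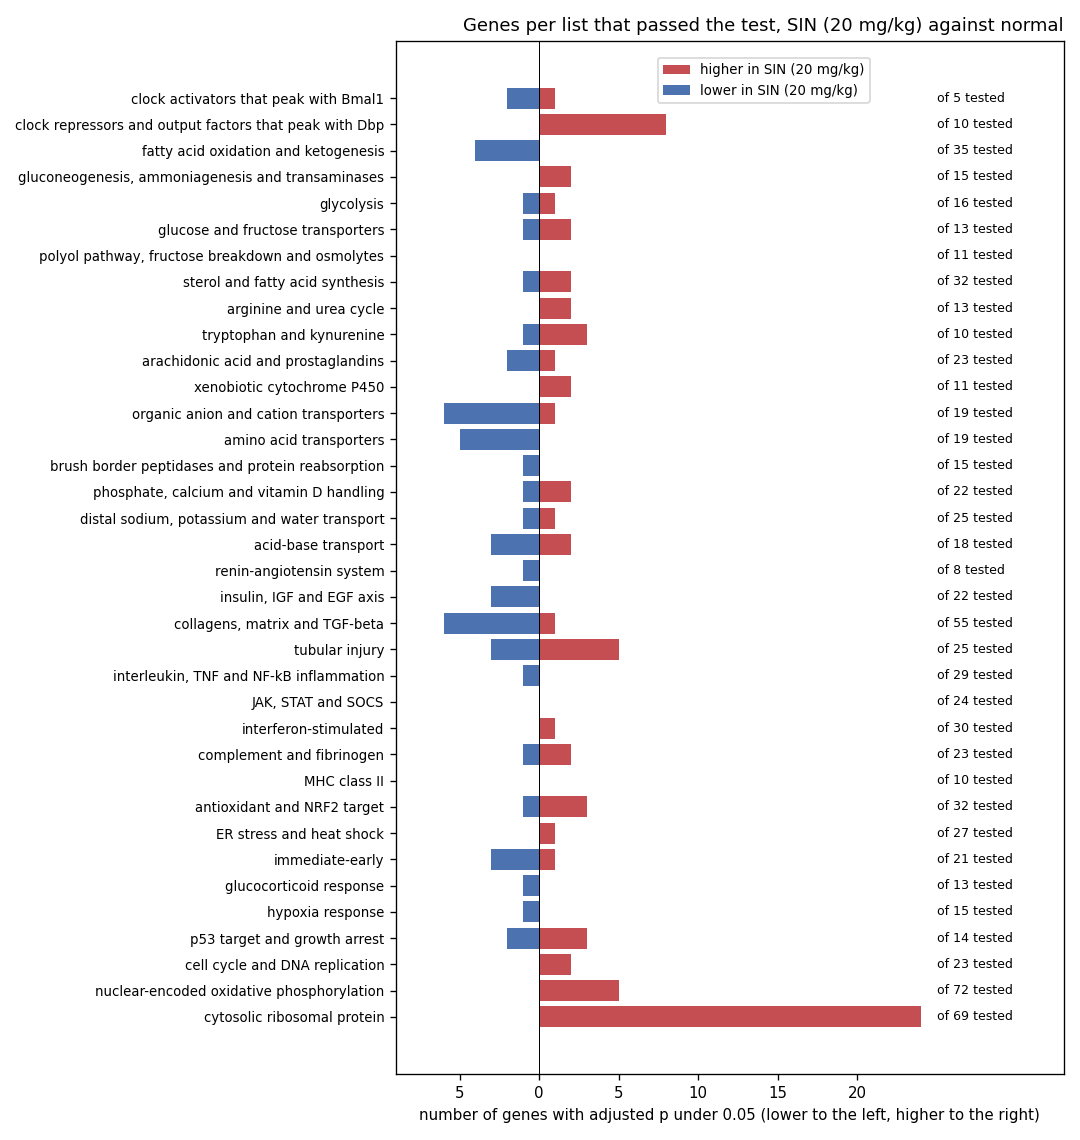
Number of genes in each of 36 lists that passed an adjusted p of 0.05 in SIN (20 mg/kg) rats against normal rats (horizontal axis: count of genes, higher to the right, lower to the left), with the number tested beside each list. The longest bar is that of the cytosolic ribosomal proteins, with 24 of 69 higher and 0 lower, and clock repressors and output factors have 8 of 10 higher.

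Genes of the clock were among the surest differences, with 4 of the 10 smallest p-values (Npas2, Per2, Per3 and Arntl). Of 5 genes that peak with Arntl, 2 fell (Arntl and Npas2) and 1 rose (Cry1), and of 10 genes that peak with Dbp, 8 rose and 0 fell, where 2.77% of all genes rose. The promoters of genes that rose are shown because clock factors act through short motifs there. The E-box is CACGTG, bound by Arntl with its partner Clock or Npas2. The D-box is TTATGTAA or TTATGCAA and is bound by Dbp, Tef and Hlf. In the 250 bases before the start site in RefSeq (build GRCr8), searched on both strands, an E-box was found for 4 of the 13 clock genes that have a window and a D-box for 1 of 13. Of all 33469 promoters, 5.59% hold an E-box and 1.6% a D-box. The 4 of these promoters whose genes rose are given 5′ to 3′ on the strand of the gene, with the motif in capitals. The fifth gene with a motif was Nr1d1, which has 2 start sites with an E-box at one of them and did not pass the test. A match of letters does not show that a factor binds there.
Ciart promoter, chr2:186112247-186112496, minus strand: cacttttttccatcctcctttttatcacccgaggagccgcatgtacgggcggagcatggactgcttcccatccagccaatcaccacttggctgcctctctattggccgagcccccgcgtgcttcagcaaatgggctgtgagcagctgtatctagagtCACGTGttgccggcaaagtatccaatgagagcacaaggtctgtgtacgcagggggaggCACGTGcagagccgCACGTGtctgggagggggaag
Tef promoter, chr7:115206577-115206826, plus strand: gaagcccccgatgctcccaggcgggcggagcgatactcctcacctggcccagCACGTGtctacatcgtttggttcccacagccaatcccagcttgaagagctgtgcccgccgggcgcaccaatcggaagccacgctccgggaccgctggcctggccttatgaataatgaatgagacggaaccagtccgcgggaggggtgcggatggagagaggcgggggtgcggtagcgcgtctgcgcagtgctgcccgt
Bhlhe41 promoter, chr4:180569356-180569605, minus strand: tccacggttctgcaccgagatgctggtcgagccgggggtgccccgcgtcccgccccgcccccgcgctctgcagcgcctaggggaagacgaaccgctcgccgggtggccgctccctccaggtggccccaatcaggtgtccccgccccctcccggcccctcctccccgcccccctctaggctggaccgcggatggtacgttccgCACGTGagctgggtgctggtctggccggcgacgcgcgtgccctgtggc
Per2 promoter, chr9:99496994-99497243, minus strand: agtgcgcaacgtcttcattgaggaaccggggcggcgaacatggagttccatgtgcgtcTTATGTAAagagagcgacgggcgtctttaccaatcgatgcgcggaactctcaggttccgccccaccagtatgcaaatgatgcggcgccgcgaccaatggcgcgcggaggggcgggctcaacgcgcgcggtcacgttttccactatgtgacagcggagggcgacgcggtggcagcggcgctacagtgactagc

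Npas2, the partner of Arntl in some tissues, stood at 19.1, 19.5, 15.5 and 12.3 CPM in normal rats 1 to 4 and at 1.55, 1.39, 1.01 and 1.27 CPM in treated rats 1 to 4 (log2FC -3.66 ± 0.21, adjusted p = 6.37e-05). Arntl itself was at 39.7, 43.5, 37.2 and 32.8 CPM in the normal and 6.49, 3.3, 2.43 and 4.09 CPM in the treated rats (log2FC -3.23 ± 0.26, adjusted p = 0.000284). Every treated rat was far below every normal rat for both genes, and treated rat 1 had the highest Arntl of its group. Cry1, a repressor that peaks late, went the other way, from 8.38, 8.96, 8.25 and 6.67 CPM to 14.9, 15.8, 13.9 and 13 CPM (log2FC 0.83 ± 0.14, adjusted p = 0.00709). Clock (log2FC -0.57, adjusted p = 0.141) and Nfil3, which competes for the D-box (log2FC -1.18, adjusted p = 0.067), did not pass the test. Nfil3 was past the threshold by DESeq2 (adjusted p = 0.00731), by edgeR's exact test (0.0148), with all 16 rats in one fit (0.0324) and with the replicate number as a block (0.0333). Without treated rat 1 both Clock (log2FC -0.79, adjusted p = 0.0221) and Nfil3 (log2FC -1.47, adjusted p = 0.0262) passed, which made 4 of the 5 genes lower.

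Among the genes that peak with Dbp, the repressors Per2 and Per3 rose. Per2 was at 20.6, 21.8, 21.4 and 21.3 CPM in the normal rats and 63.3, 65.2, 88.8 and 57.3 CPM in the treated rats (log2FC 1.69 ± 0.13, adjusted p = 0.000263). Per3 was at 7.73, 7.65, 8.47 and 11.2 CPM and 32.9, 29.5, 42.6 and 39.1 CPM (log2FC 2.04 ± 0.16, adjusted p = 0.000263). Both were more than 2 times higher in every treated rat than in any normal rat. Ciart, a repressor of the Arntl complex and the owner of the promoter with 3 E-boxes, was at 0.326, 0.0968, 0.263 and 0.311 CPM and 2.84, 7.68, 8.61 and 8.23 CPM (log2FC 4.73 ± 0.45, adjusted p = 0.000557). The D-box factor Dbp was at 20.2, 26.5, 28.3 and 44.2 CPM and 95.4, 207, 202 and 210.4 CPM (log2FC 2.58 ± 0.29, adjusted p = 0.00128). For Ciart and Dbp, as for Tef, treated rat 1 lay well below the other 3 rats of its group but above all normal rats. Tef (log2FC 0.97 ± 0.15, adjusted p = 0.00478) and Hlf (log2FC 0.74 ± 0.098, adjusted p = 0.00289), the other members of the Dbp family, rose too. So did the repressors Bhlhe41 (log2FC 1.36 ± 0.32, adjusted p = 0.0314) and Nr1d2 (log2FC 0.71 ± 0.18, adjusted p = 0.0437). Per1 (log2FC 0.42, adjusted p = 0.325) and Nr1d1 (log2FC 0.40, adjusted p = 0.439) did not pass the test. Nr1d1 passed without treated rat 1 (log2FC 0.64, adjusted p = 0.00705). Bhlhe41 lost its call in 7 of the 8 fits without 1 rat (adjusted p up to 0.0973, without treated rat 3). Nr1d2 lost its call in 7 of the 8 fits without 1 rat (adjusted p up to 0.11, without normal rat 1). With all 16 rats in one fit Bhlhe41 (adjusted p = 0.0626) and Nr1d2 (adjusted p = 0.0704) missed the threshold too.

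The difference between the mean log2 CPM of the 10 genes that peak with Dbp and that of the 5 that peak with Arntl was -0.639, -0.658, -0.546 and 0.058 in the normal rats and 1.73, 2.64, 3.22 and 2.9 in the treated rats. The group means were 3.07 apart (-0.446 ± 0.34 against 2.62 ± 0.641, SD, n = 4). In the DN group it ran from 0.615 to 2.02 and at 40 mg/kg from 2.17 to 2.79. The groups are ordered by level here without a test, since such a score sums over genes already known to differ.

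**Figure D2:**
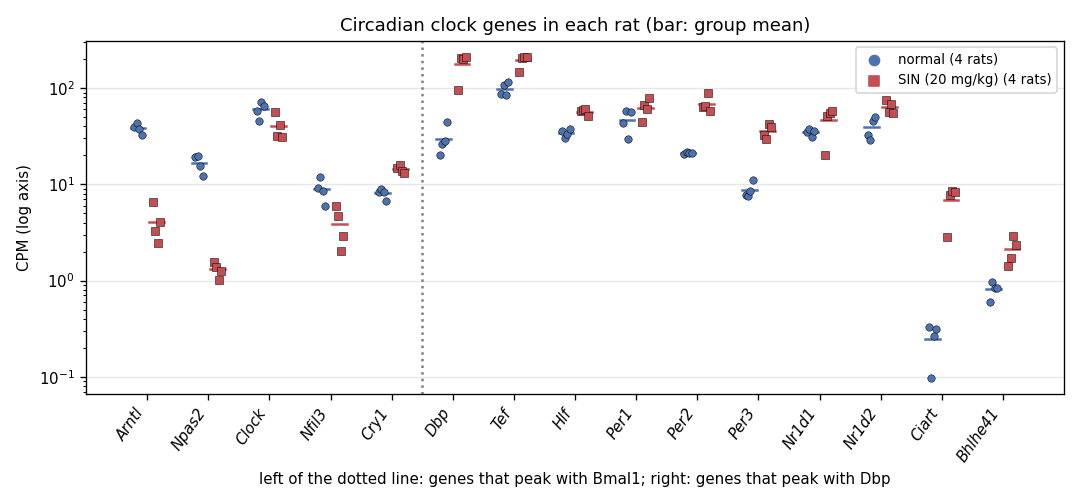
CPM (vertical axis, logarithmic) of 15 clock genes in each of 4 normal rats (circles) and 4 SIN (20 mg/kg) rats (squares), with a bar at the group mean. Npas2 lies at 12.3 CPM or more in the normal rats and at 1.55 CPM or less in the treated rats, and Dbp, Per2 and Per3 lie higher in every treated rat.

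Largest rises and falls were ranked among genes with a symbol, past both thresholds, groups apart and at least 1 CPM in the higher group. Groups apart is thus a condition of that choice and not a result. Havcr1 (log2FC 3.63), described below, was left out because its groups overlapped. Outside the clock, Fgb, the beta chain of fibrinogen, was among the 10 largest rises so ranked. It was at 0.978, 1.06, 0.263 and 0.667 CPM in the normal rats and 12, 5.37, 7.44 and 6.54 CPM in the treated rats (log2FC 3.39 ± 0.41, adjusted p = 0.00161). Serpina1, the protease inhibitor alpha-1-antitrypsin, went from 0, 0.484, 0.527 and 0.445 CPM to 2.67, 4.93, 0.861 and 5.6 CPM (log2FC 3.25 ± 0.74, adjusted p = 0.0294). Serpina4, the tissue kallikrein inhibitor kallistatin, went from 1.12, 0.774, 0.132 and 0.712 CPM to 5.2, 3.54, 8.91 and 7.01 CPM (log2FC 3.16 ± 0.49, adjusted p = 0.00599). All 3 genes were higher in every treated rat than in any normal rat, as the choice required. Fga, the alpha chain of fibrinogen, rose less (log2FC 0.90 ± 0.21, adjusted p = 0.031). Baat, which joins bile acids to amino acids, was at 3.91, 3.68, 3.91 and 2.85 CPM and 18.7, 22.6, 30.1 and 11.5 CPM (log2FC 2.53 ± 0.27, adjusted p = 0.00109). Apba2, a neuronal adaptor protein (log2FC 2.86 ± 0.40, adjusted p = 0.00348), and Ly6al, of the Ly6 family (log2FC 3.12 ± 0.33, adjusted p = 0.000934), were also among the 10 largest rises. So were Gpt2, described with metabolism below, and Ciart and Dbp. Fga lost its call in 7 of the 8 fits without 1 rat (adjusted p up to 0.0851, without treated rat 3). Serpina1 lost its call in 5 of the 8 fits without 1 rat (adjusted p up to 0.0832, without treated rat 2).

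Cyp1a1, a cytochrome P450 induced through the aryl hydrocarbon receptor, had the largest fitted rise of the genes so ranked, and 1 library decided its size. It was at 2.61, 1.11, 0.658 and 0.623 CPM in the normal rats and at 5.89, 707, 7.6 and 13.1 CPM in the treated rats. Treated rat 2 was far above all others, and the remaining 3 still exceeded every normal rat. The log2 fold change was 7.20 ± 1.81 (SE) with an adjusted p of 0.044 over all 8 rats and 2.82 with an adjusted p of 0.0198 without that rat. Cyp1a1 lost its call in 4 of the 8 fits without 1 rat (adjusted p up to 0.128, without normal rat 4). Without normal rat 1 its log2FC was 7.85.

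The largest falls left several genes at or near 0. Anxa13, an annexin of epithelial cells, was at 29.4, 24.2, 47.5 and 34 CPM in the normal rats and at 0.387, 0.398, 0.861 and 0.141 CPM in the treated rats (log2FC -6.25 ± 0.38, adjusted p = 6.37e-05). Serpinb12, an intracellular protease inhibitor, was at 4.7, 6.34, 3.77 and 6.14 CPM and 0.043, 0.0795, 0.101 and 0.141 CPM (log2FC -5.78 ± 0.36, adjusted p = 6.99e-05). Cyp8b1, the sterol 12-alpha-hydroxylase of cholic acid synthesis, was at 3.21, 6.34, 3.95 and 5.03 CPM and 0.043, 0.0398, 0.203 and 0.047 CPM (log2FC -5.77 ± 0.48, adjusted p = 0.000286). In each of these genes the lowest normal rat was many times above the highest treated rat. The log2FC of Cyp8b1 was -6.57 without treated rat 3. Cpne4, a calcium-binding copine, had 17, 19, 38 and 45 estimated counts in the normal rats and 0 in all 4 treated rats, which makes it at least 8.85-fold lower when 3 counts per library are taken as the limit of a count of 0.

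Slc7a12, an amino acid transporter, fell from 68.7, 43.6, 63 and 73.6 CPM to 3.14, 2.55, 7.75 and 3.81 CPM (log2FC -3.87 ± 0.33, adjusted p = 0.000306). Cftr, the chloride channel mutated in cystic fibrosis, fell from 5.4, 3.0, 13.3 and 5.47 CPM to 0.215, 0.517, 0.203 and 0.80 CPM (log2FC -3.95 ± 0.56, adjusted p = 0.00378). Neither gene had a treated rat within the normal range, as the choice of the largest falls required. Also among the 10 largest falls were Acot5, a peroxisomal acyl-CoA thioesterase (log2FC -4.82 ± 0.68, adjusted p = 0.00348), Tex101, a surface glycoprotein known from the testis (log2FC -4.64 ± 0.94, adjusted p = 0.0179), and Ccn6, a matricellular protein (log2FC -4.57 ± 0.55, adjusted p = 0.00161). Tex101 lost its call in 2 of the 8 fits without 1 rat (adjusted p up to 0.0591, without treated rat 4). The log2FC of Tex101 was -3.76 without normal rat 2 and -6.69 without treated rat 3, and that of Acot5 was -5.99 without treated rat 1. Acot1 and Acot5, Cyp4a2, Gsta3 and the Slco1a genes belong to families of close copies between which counting could split reads, so their values are uncertain. Kap, the kidney androgen-regulated protein of the proximal tubule, was chosen after its values were seen. It fell from 2076, 1426, 2212 and 2389 CPM to 263, 215, 353 and 86.3 CPM (log2FC -3.14 ± 0.37, adjusted p = 0.00159). Its highest treated rat was well below its lowest normal rat.

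**Figure D3:**
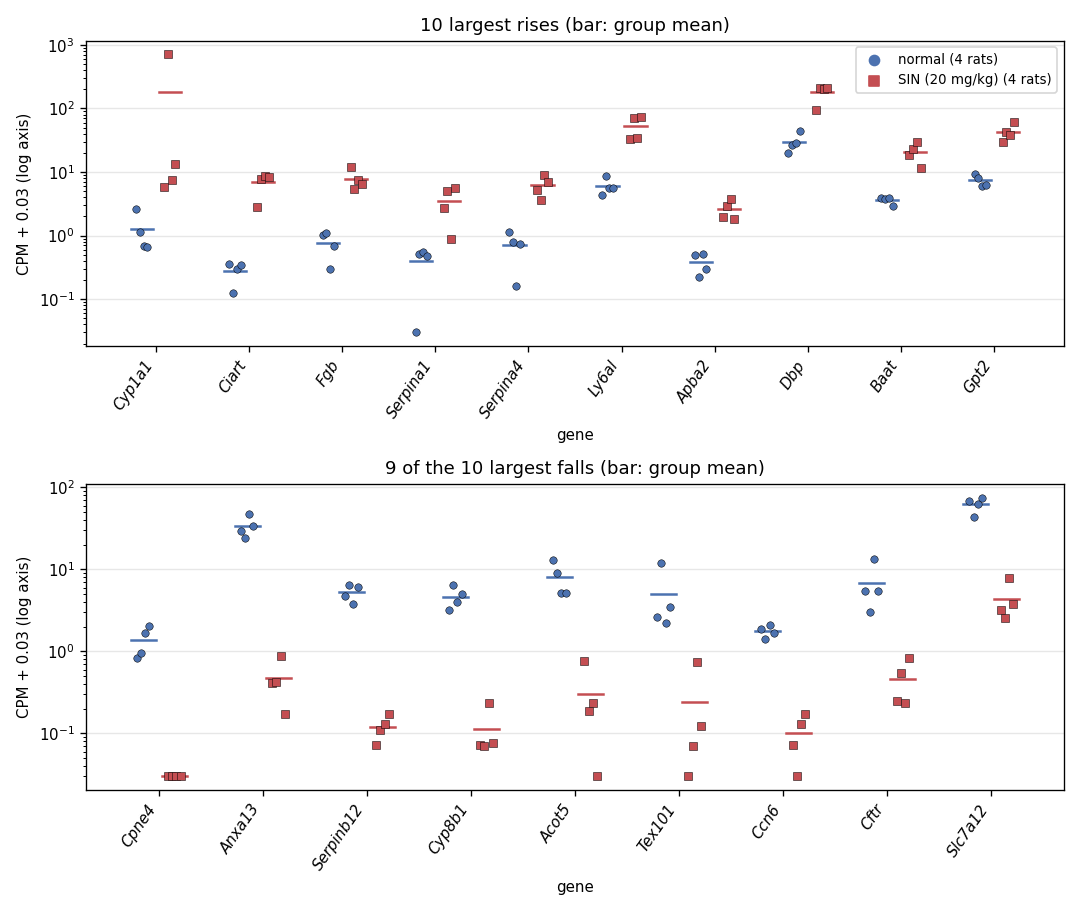
CPM plus 0.03 (vertical axis, logarithmic) of the 10 genes with the largest rises (top) and 9 of the 10 with the largest falls (bottom) in 4 normal rats (circles) and 4 SIN (20 mg/kg) rats (squares), with a bar at the group mean. Ranking was among genes with a symbol, past both thresholds, at least 1 CPM in the higher group and groups apart. Lack of overlap is thus a condition of the choice. Cpne4 is at 0 in all treated rats, and 1 rat carries the mean of Cyp1a1.

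Some of the surest differences were smaller. Dio1, the deiodinase that turns thyroxine into active thyroid hormone, was at 324, 358, 249.6 and 319.6 CPM in the normal rats and 95.5, 87.2, 95 and 67.3 CPM in the treated rats (log2FC -1.86 ± 0.15, adjusted p = 0.000263). Psat1, an enzyme of serine synthesis, was at 294, 276, 241 and 271 CPM and 104, 115, 117 and 127 CPM (log2FC -1.23 ± 0.098, adjusted p = 0.000263). Nkd2, an antagonist of Wnt signalling, was at 43.6, 47.9, 39.8 and 53.5 CPM and 9.59, 7.64, 7.24 and 11.6 CPM (log2FC -2.36 ± 0.17, adjusted p = 0.00017). All 3 fell with little spread inside either group. Lpin2, a phosphatidate phosphatase of lipid synthesis, rose from 67.8, 71.3, 68.6 and 70.2 CPM to 127, 129, 137 and 132 CPM (log2FC 0.92 ± 0.071, adjusted p = 0.000263). Its rats lay close together in both groups.

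Transporters of organic ions and amino acids in the proximal tubule were lower where they moved, with Abcc2 as the exception. Of 19 genes for organic anion and cation transport, 6 fell and 1 rose, with a median log2 fold change of -0.281 against 0.00286 over all genes. Slco1a1, an organic anion uptake carrier, was at 196, 205, 268 and 261 CPM in the normal rats and 21.6, 11, 35.8 and 19.1 CPM in the treated rats (log2FC -3.41 ± 0.31, adjusted p = 0.000404). Slc22a2, the main renal uptake carrier of organic cations, was at 632, 780.5, 547 and 682 CPM and 235, 225, 327 and 299 CPM (log2FC -1.28 ± 0.15, adjusted p = 0.00159). For neither gene did the groups come near each other. The carnitine carrier Slc22a5 fell too (log2FC -0.64 ± 0.11, adjusted p = 0.00791). So did the anion carriers Slc22a22 (log2FC -1.22 ± 0.20, adjusted p = 0.00713), Slco2b1 (log2FC -0.60 ± 0.11, adjusted p = 0.0121) and Slco1a6 (log2FC -1.23 ± 0.26, adjusted p = 0.0215). Abcc2, an export pump for conjugated anions, rose (log2FC 0.72 ± 0.17, adjusted p = 0.031). Slco1a6 lost its call in 3 of the 8 fits without 1 rat (adjusted p up to 0.0648, without normal rat 4). Abcc2 lost its call in 6 of the 8 fits without 1 rat (adjusted p up to 0.097, without normal rat 4).

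Of 19 amino acid transporters, 5 fell and 0 rose (median -0.167). Besides Slc7a12, the fall was clearest for Slc7a13, an acidic amino acid and cystine carrier of the late proximal tubule. It was at 1849.5, 2089.8, 2122 and 2207 CPM in the normal rats and 512, 435, 789 and 810.4 CPM in the treated rats (log2FC -1.70 ± 0.20, adjusted p = 0.00145). Slc15a2, the high-affinity peptide carrier, fell too (log2FC -0.74 ± 0.15, adjusted p = 0.0158). Slc3a1, the subunit whose loss causes cystinuria (log2FC -0.51 ± 0.11, adjusted p = 0.029), and Slc38a2, a carrier of neutral amino acids whose groups overlapped (log2FC -0.91 ± 0.23, adjusted p = 0.0437), fell as well. Slc15a2 lost its call without normal rat 4 (adjusted p = 0.0522). Slc3a1 lost its call in 6 of the 8 fits without 1 rat (adjusted p up to 0.101, without treated rat 2). Slc38a2 lost its call in 6 of the 8 fits without 1 rat (adjusted p up to 0.124, without treated rat 2). Among 15 proximal tubule markers 2 fell, Slc7a13 and Slc3a1, both already counted here. The summed marker level overlapped between the groups, and its part in these falls was not tested.

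Glucose and fructose carriers moved both ways, 2 up and 1 down of 13. Slc2a2 (GLUT2), through which glucose leaves the proximal tubule cell, was at 107, 100.4, 84.1 and 77.2 CPM in the normal rats and 194, 189, 205 and 186 CPM in the treated rats (log2FC 1.07 ± 0.12, adjusted p = 0.00109). Slc5a10 (SGLT5), a mannose and fructose carrier, was at 107, 152, 81.1 and 110.1 CPM and 181, 337, 281 and 286 CPM (log2FC 1.27 ± 0.22, adjusted p = 0.00861). Both were higher in every treated rat. Slc5a9 (SGLT4), a related mannose carrier, fell from 69.1, 63.9, 57.5 and 64 CPM to 35.7, 41.4, 46.9 and 35.8 CPM (log2FC -0.67 ± 0.11, adjusted p = 0.0074). Of the 11 genes of the polyol pathway, fructose breakdown and osmolytes 0 passed by edgeR's quasi-likelihood test and 1 had an unadjusted p under 0.05, Sord, which turns sorbitol into fructose (log2FC 0.50, adjusted p = 0.0645). Sord was past the threshold by DESeq2 (adjusted p = 0.00757), by edgeR's exact test (0.0237) and without normal rat 1 (0.0456).

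**Figure D4:**
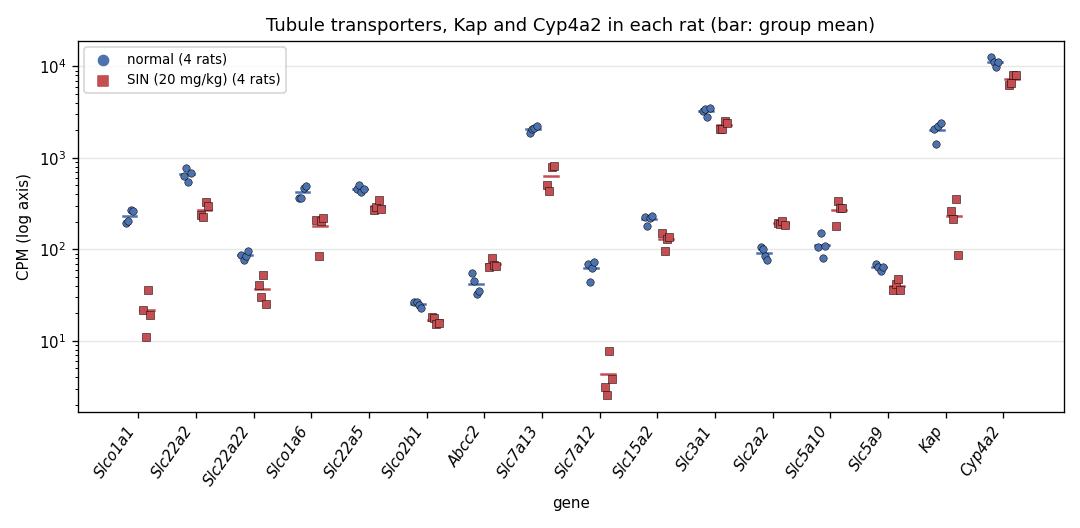
CPM (vertical axis, logarithmic) of 14 transporter genes, Kap and Cyp4a2 in 4 normal rats (circles) and 4 SIN (20 mg/kg) rats (squares), with a bar at the group mean. Slc7a12, Slco1a1 and Kap show the widest gaps, and Abcc2, Slc2a2 and Slc5a10 are the 3 that are higher in the treated rats.

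Of 35 genes listed for fatty acid oxidation, ketone body synthesis and related fuel handling, 4 fell and 0 rose (median -0.306). Of the 4, Eci1 alone is an enzyme of fatty acid oxidation, and none makes ketone bodies. Angptl4, an inhibitor of lipoprotein lipase, was at 18.9, 21.7, 19.6 and 19.6 CPM in the normal rats and 3.01, 6.96, 6.33 and 6.44 CPM in the treated rats (log2FC -1.81 ± 0.23, adjusted p = 0.00191). Pdk4, a kinase that inhibits pyruvate dehydrogenase, was at 29.1, 18.5, 25.4 and 23.8 CPM and 7.4, 10.5, 11.6 and 7.38 CPM (log2FC -1.40 ± 0.19, adjusted p = 0.00335). Each was lower in every treated rat. So were Eci1, an enoyl-CoA isomerase (log2FC -0.74 ± 0.14, adjusted p = 0.0118), and Acot1, a cytosolic thioesterase (log2FC -0.79 ± 0.18, adjusted p = 0.0274). The alternative test DESeq2 passed 15 genes of the list as lower and 1 as higher. Cyp4a2, an omega-hydroxylase of fatty acids that makes 20-HETE from arachidonic acid, fell from 11201 ± 1084 CPM to 7223 ± 936 CPM (SD, n = 4; log2FC -0.64, adjusted p = 0.015). Acot1 lost its call in 4 of the 8 fits without 1 rat (adjusted p up to 0.0855, without treated rat 2). Cyp4a2 lost its call without treated rat 2 (adjusted p = 0.0576).

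Alanine aminotransferases rose, the 2 genes of 15 for gluconeogenesis, ammonia formation and transamination that passed. Gpt2, the mitochondrial form, was at 9.31, 8.04, 6.01 and 6.31 CPM in the normal rats and 29.5, 41.9, 38.1 and 60.4 CPM in the treated rats (log2FC 2.51 ± 0.23, adjusted p = 0.000425). Gpt, the cytosolic form, was at 8.89, 10.2, 6.67 and 6.18 CPM and 14.2, 14.3, 12.5 and 18.8 CPM (log2FC 0.90 ± 0.20, adjusted p = 0.0239). The 2 groups were apart for both. Of 16 glycolytic genes, Pklr, the pyruvate kinase of liver and proximal tubule, fell from 263, 322, 242 and 250.1 CPM to 113, 103, 139 and 116 CPM (log2FC -1.19 ± 0.13, adjusted p = 0.000934). Aldoc, an aldolase at a low level here, rose from 1.02, 0.871, 0.878 and 0.889 CPM to 2.24, 4.22, 2.94 and 3.57 CPM (log2FC 1.82 ± 0.27, adjusted p = 0.00435). Gpt lost its call in 4 of the 8 fits without 1 rat (adjusted p up to 0.0701, without normal rat 4).

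In the breakdown of tryptophan to kynurenine 3 of 10 genes rose and 1 fell. Kmo, which turns kynurenine into 3-hydroxykynurenine, was at 202, 190.2, 205 and 211 CPM in the normal rats and 332, 297, 371 and 292 CPM in the treated rats (log2FC 0.67 ± 0.100, adjusted p = 0.00447). The kynurenine aminotransferases Aadat (log2FC 0.86 ± 0.14, adjusted p = 0.00621) and Kyat3 (log2FC 0.73 ± 0.12, adjusted p = 0.0074) rose. The formamidase Afmid fell (log2FC -0.49 ± 0.10, adjusted p = 0.0187). These 4 changes were below 2-fold. Of 13 genes of arginine and the urea cycle, Nos1, the neuronal nitric oxide synthase present in the macula densa, rose (log2FC 1.15 ± 0.20, adjusted p = 0.00969). Cps1, the first enzyme of the urea cycle, rose too (log2FC 2.44 ± 0.47, adjusted p = 0.0139). Of 11 xenobiotic cytochromes P450, Cyp1a1 and Cyp2e1 rose. Cyp2e1, known to be induced by ketone bodies and ethanol, went from 593 ± 166 CPM to 1445 ± 181 CPM (SD, n = 4; log2FC 1.28 ± 0.19, adjusted p = 0.00435). Afmid lost its call in 3 of the 8 fits without 1 rat (adjusted p up to 0.0559, without treated rat 2). Cps1 lost its call without normal rat 4 (adjusted p = 0.0518). With all 16 rats in one fit, Nos1 missed the threshold (adjusted p = 0.0624).

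Of 23 genes of arachidonic acid and prostaglandins, Ptgds, a prostaglandin D synthase, fell from 121, 88.4, 89.8 and 90.8 CPM to 40.5, 20.4, 29.7 and 32.6 CPM (log2FC -1.66 ± 0.20, adjusted p = 0.00159), beside Cyp4a2. The prostaglandin carrier Slco2a1 rose (log2FC 0.80 ± 0.16, adjusted p = 0.0179). Of 32 genes of sterol and fatty acid synthesis, the sterol reductase Tm7sf2 (log2FC 0.68 ± 0.14, adjusted p = 0.017) and the regulator Srebf1 (log2FC 0.79 ± 0.17, adjusted p = 0.0205) rose. Malic enzyme Me1 fell (log2FC -0.50 ± 0.12, adjusted p = 0.031). Both lists had a median near 0. Slco2a1 lost its call in 5 of the 8 fits without 1 rat (adjusted p up to 0.064, without normal rat 4). Tm7sf2 lost its call in 4 of the 8 fits without 1 rat (adjusted p up to 0.0542, without treated rat 2). Srebf1 lost its call in 2 of the 8 fits without 1 rat (adjusted p up to 0.0697, without normal rat 4). Me1 lost its call in 5 of the 8 fits without 1 rat (adjusted p up to 0.0899, without normal rat 4).

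In the later nephron, Egf, the growth factor made in the thick ascending limb and distal convoluted tubule, was at 1405, 1523, 1098 and 1105 CPM in the normal rats and 491, 561, 494 and 534 CPM in the treated rats (log2FC -1.31 ± 0.13, adjusted p = 0.000731). Umod, uromodulin, the main protein of normal urine, was at 2921, 3596, 3158 and 3469 CPM and 1818, 1838, 2039 and 2076 CPM (log2FC -0.76 ± 0.10, adjusted p = 0.00289). Both were lower in every treated rat. Summed markers of the thick ascending limb were 4057 to 5339 CPM in the normal rats and 3586 to 3720.3 CPM in the treated rats, of which Umod is the largest part. Of the 8 markers only Umod and Cldn16, a claudin for magnesium and calcium (log2FC -0.54 ± 0.13, adjusted p = 0.0402), passed the test. Within the insulin, IGF and EGF axis 3 of 22 genes fell and 0 rose. They were Egf, Igfbp3, a binding protein of the IGFs (log2FC -1.09 ± 0.17, adjusted p = 0.00523), and Igf1 (log2FC -1.42 ± 0.27, adjusted p = 0.0143). Cldn16 lost its call in 6 of the 8 fits without 1 rat (adjusted p up to 0.122, without normal rat 4).

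Acid-base genes split, with 3 of 18 lower and 2 higher. Slc26a4, pendrin, the chloride and bicarbonate exchanger of intercalated cells, was at 115, 103, 79.3 and 88.3 CPM in the normal rats and 42.8, 47.5, 52.2 and 57.8 CPM in the treated rats (log2FC -0.94 ± 0.14, adjusted p = 0.00406). Atp6v1b1, a proton pump subunit of the same cells (log2FC -0.61 ± 0.11, adjusted p = 0.0112), and the apical anion exchanger Slc26a6 (log2FC -0.74 ± 0.15, adjusted p = 0.0156) fell. The membrane carbonic anhydrases Car4 (log2FC 0.66 ± 0.11, adjusted p = 0.00886) and Car14 (log2FC 0.71 ± 0.13, adjusted p = 0.0125), listed as Ca4 and Ca14 in the deposited table, rose. Slc26a4 and Atp6v1b1 were the 2 of 14 collecting duct markers that fell. The summed level of those 14 leaned the other way, 1531 to 2393 CPM in the treated rats and 1012 to 1743 CPM in the normal rats, with overlap. The part of the collecting duct in each sample was not tested. Slc26a6 lost its call without treated rat 3 (adjusted p = 0.0533). With all 16 rats in one fit Car14 missed the threshold (adjusted p = 0.0554).

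Of 25 genes of distal sodium, potassium and water transport, Scnn1a, a subunit of the epithelial sodium channel, rose (log2FC 0.61 ± 0.15, adjusted p = 0.0403). Kcnj10, a basolateral potassium channel, fell (log2FC -0.53 ± 0.10, adjusted p = 0.0166). Of 8 renin-angiotensin genes reported here 1 fell. It was Agtr1a, a receptor for angiotensin II, at 59.4, 54.3, 54.4 and 57.7 CPM in the normal rats and 41.4, 37.9, 41.2 and 33.5 CPM in the treated rats (log2FC -0.55 ± 0.095, adjusted p = 0.00845). The groups did not meet. Of 15 brush border genes reported here 1 fell, Clcn5, an endosomal chloride transporter needed for protein uptake (log2FC -0.52 ± 0.13, adjusted p = 0.0404). Scnn1a lost its call in 6 of the 8 fits without 1 rat (adjusted p up to 0.119, without treated rat 3). Clcn5 lost its call in 6 of the 8 fits without 1 rat (adjusted p up to 0.112, without normal rat 4). Kcnj10 missed the threshold with all 16 rats in one fit (adjusted p = 0.138).

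Phosphate, calcium and vitamin D genes had 2 of 22 higher, Cyp24a1 and the sodium-calcium exchanger Slc8a1 (log2FC 0.47 ± 0.12, adjusted p = 0.0467), and Cldn16 lower. Cyp24a1, which inactivates vitamin D, was at 87.4, 97.8, 121 and 87.7 CPM in the normal rats and 385, 479.6, 197 and 108 CPM in the treated rats (log2FC 1.57 ± 0.38, adjusted p = 0.0402). The spread among the treated rats was wide and their lowest value fell inside the normal range. Cyp24a1 lost its call in 7 of the 8 fits without 1 rat (adjusted p up to 0.115, without normal rat 4). Slc8a1 lost its call in 8 of the 8 fits without 1 rat (adjusted p up to 0.14, without normal rat 4).

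Matrix genes that moved were mostly lower, 6 of 55 down and 1 up (median -0.0434), where 3.58% of all genes fell and 2.77% rose. Col4a3, a chain of the type IV collagen of the mature glomerular basement membrane, was at 219, 196, 216 and 210.4 CPM in the normal rats and 97.9, 114, 92.6 and 101 CPM in the treated rats (log2FC -1.05 ± 0.092, adjusted p = 0.000333). Its partner Col4a4 was at 646, 490.4, 543 and 534 CPM and 249, 319, 296 and 268 CPM (log2FC -0.97 ± 0.12, adjusted p = 0.00171). Nid1, which links laminin to collagen IV, was at 182, 245, 241 and 289 CPM and 120.2, 104, 92.2 and 105 CPM (log2FC -1.18 ± 0.14, adjusted p = 0.00159). The 3 basement membrane genes were lower in every treated rat. Lama2, a laminin chain (log2FC -0.76 ± 0.12, adjusted p = 0.00623), Col4a1 (log2FC -0.65 ± 0.14, adjusted p = 0.021) and the TGF-beta inhibitor Smad7 (log2FC -0.42 ± 0.10, adjusted p = 0.0383) fell too. The BMP antagonist Grem1 rose (log2FC 0.98 ± 0.23, adjusted p = 0.0308). Col4a1 lost its call in 5 of the 8 fits without 1 rat (adjusted p up to 0.0612, without treated rat 4). Smad7 lost its call in 7 of the 8 fits without 1 rat (adjusted p up to 0.119, without treated rat 3). Grem1 lost its call in 5 of the 8 fits without 1 rat (adjusted p up to 0.0857, without normal rat 4).

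The summed level of 13 markers of podocytes, which carry the filtration slit, was 609 to 727 CPM in the normal rats and 528 to 628 CPM in the treated rats, with overlap. Of these 13, 0 passed by edgeR's quasi-likelihood test, 1 was lower by DESeq2, by edgeR's exact test or without treated rat 4, and 5 had an unadjusted p under 0.05. Of the mural and smooth muscle markers 1 of 11 rose, Tagln, transgelin, with overlapping groups (log2FC 0.95 ± 0.22, adjusted p = 0.0297). Tagln lost its call in 5 of the 8 fits without 1 rat (adjusted p up to 0.0819, without treated rat 2).

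Of 25 genes listed for tubular injury, 5 rose and 3 fell, with a median log2 fold change of 0.452. Clu, clusterin, was at 151, 149, 134 and 100.2 CPM in the normal rats and 408, 339, 230.1 and 303 CPM in the treated rats (log2FC 1.26 ± 0.19, adjusted p = 0.0047). Krt8, a keratin of simple epithelia, was at 181, 163, 130.0 and 153 CPM and 256, 295, 283 and 303 CPM (log2FC 0.86 ± 0.12, adjusted p = 0.00301). Havcr1, the injury marker KIM-1, was at 0.838, 2.28, 0.395 and 0.756 CPM and 33.1, 12.2, 2.23 and 4.89 CPM (log2FC 3.63 ± 0.83, adjusted p = 0.0306). Clu and Krt8 were higher in every treated rat. Havcr1 overlapped, with rat 1 highest and rat 3 just below the highest normal rat. Vim, vimentin (log2FC 0.45 ± 0.093, adjusted p = 0.0193), and Gdf15, a stress cytokine (log2FC 0.70 ± 0.18, adjusted p = 0.0495), rose as well. Of the genes that fell, Tff3, a trefoil peptide, went from 389, 460.3, 470.3 and 545 CPM to 64.6, 42, 127 and 57.5 CPM (log2FC -2.68 ± 0.30, adjusted p = 0.00127). The other 2 were Egf and Umod, products of the later nephron described above and not injury-induced genes. Havcr1 lost its call in 4 of the 8 fits without 1 rat (adjusted p up to 0.0965, without normal rat 4). Vim lost its call in 4 of the 8 fits without 1 rat (adjusted p up to 0.0737, without normal rat 4). Gdf15 lost its call in 7 of the 8 fits without 1 rat (adjusted p up to 0.14, without normal rat 4). The size of the rise in Havcr1 depended on single rats, with a log2FC of 2.6 without treated rat 1 and 4.3 without normal rat 2.

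The study names 10 core targets, hubs of a network of proteins linked to both SIN and DN, to which it docked SIN by computation. Their kidney mRNA against normal rats is a different measure and does not test that prediction. CXCL8 was not analysed here. Of the other 9, 7 had enough counts to be tested and none passed by edgeR's quasi-likelihood test. Stat3 was at 143, 187, 135 and 135 CPM in the normal rats and 134, 149.8, 133 and 158 CPM in the treated rats (log2FC -0.064 ± 0.12, adjusted p = 0.823). Jak2 had a log2FC of -0.27 ± 0.19 (adjusted p = 0.455). Nfkb1 had one of 0.26 ± 0.078 (adjusted p = 0.0802) with groups that did not overlap. Nfkb1 was past the threshold by DESeq2 (adjusted p = 0.0214) and with all 16 rats in one fit (adjusted p = 0.028). Il1b (log2FC -0.23 ± 0.27, adjusted p = 0.686), Il18 (log2FC -0.0056 ± 0.28, adjusted p = 0.995), Mmp9 (log2FC -0.99 ± 0.41, adjusted p = 0.205) and Ptgs2 (log2FC -0.92 ± 0.33, adjusted p = 0.141) were likewise not past the threshold. That does not show that they were equal. Il6 had a read in 1 of the 8 rats and Tnf in none, so neither was tested.

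Of 24 JAK, STAT and SOCS genes 0 passed by edgeR or by DESeq2, and 1 had an unadjusted p under 0.05, Il6st, the shared receptor chain gp130 (log2FC -0.21, adjusted p = 0.179). Of 29 interleukin, TNF and NF-kB genes 1 passed, the chemokine Cx3cl1, which fell (log2FC -0.47 ± 0.11, adjusted p = 0.0362). Of 30 interferon-stimulated genes 1 rose, the antiviral GTPase Mx1. It was at 6.05, 8.57, 12.3 and 8.49 CPM in the normal rats and 18.2, 17.1, 18.8 and 16.4 CPM in the treated rats (log2FC 0.99 ± 0.19, adjusted p = 0.0137). Of 10 MHC class II genes and of 15 leukocyte markers 0 passed by edgeR or by DESeq2, with 2 of each at an unadjusted p under 0.05. The summed leukocyte level was 287 to 628 CPM in the normal rats and 393 to 493 CPM in the treated rats. Of 23 genes of complement and fibrinogen, Fgb and Fga rose and Cd59 fell. Cd59, an inhibitor of the membrane attack complex, went from 185, 172, 234 and 210.4 CPM to 130.2, 129.9, 137 and 116 CPM (log2FC -0.64 ± 0.11, adjusted p = 0.00829). Cx3cl1 lost its call in 6 of the 8 fits without 1 rat (adjusted p up to 0.109, without treated rat 3). Mx1 missed the threshold with all 16 rats in one fit (adjusted p = 0.183).

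Antioxidant and NRF2 target genes had 3 of 32 higher and 1 lower. Gsta3, a glutathione transferase, was at 13.5, 9.97, 13.8 and 17.3 CPM in the normal rats and 26.1, 22.3, 26.9 and 29.3 CPM in the treated rats (log2FC 0.94 ± 0.16, adjusted p = 0.00928). Its groups were apart. Gpx4, which reduces lipid peroxides, rose (log2FC 0.49 ± 0.13, adjusted p = 0.0466), as did Nqo1, a quinone reductase with overlapping groups (log2FC 1.04 ± 0.27, adjusted p = 0.0473). Gclc, which makes the precursor of glutathione, fell (log2FC -0.56 ± 0.12, adjusted p = 0.0211). Of 27 ER stress and heat shock genes, Chac1, which degrades glutathione and was near 1 CPM or below, rose (log2FC 1.74 ± 0.45, adjusted p = 0.0481). In the hypoxia list Ndrg1 alone of 15 passed, falling from 2588 ± 512 CPM to 1427 ± 195 CPM (SD, n = 4; log2FC -0.86, adjusted p = 0.0124). In the glucocorticoid list Klf9, also a clock output, alone of 13 passed and fell (log2FC -0.80 ± 0.12, adjusted p = 0.00499). Gclc lost its call in 3 of the 8 fits without 1 rat (adjusted p up to 0.0761, without treated rat 2). Gpx4 lost its call in 6 of the 8 fits without 1 rat (adjusted p up to 0.138, without normal rat 4). Nqo1 lost its call in 7 of the 8 fits without 1 rat (adjusted p up to 0.128, without normal rat 4). Chac1 lost its call in 8 of the 8 fits without 1 rat (adjusted p up to 0.159, without treated rat 2).

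Immediate-early genes, which answer within minutes to handling and growth signals, had 3 of 21 lower and 1 higher. Nr4a1, an orphan nuclear receptor, was at 22.4, 16.7, 37.6 and 32.3 CPM in the normal rats and 6.75, 10.7, 7.39 and 8.14 CPM in the treated rats (log2FC -1.72 ± 0.25, adjusted p = 0.00435). Fos was at 5.4, 2.08, 25.9 and 5.2 CPM and 1.46, 0.835, 0.506 and 0.894 CPM (log2FC -3.36 ± 0.74, adjusted p = 0.0249). Egr1 was at 18.9, 7.07, 85.4 and 38.4 CPM and 7.74, 4.49, 3.7 and 4.47 CPM with overlapping groups (log2FC -2.87 ± 0.64, adjusted p = 0.0266). Normal rat 3 was highest for all 3 genes, and for Fos far above the rest of its group. Myc, a growth factor-responsive transcription factor, rose from 6.94, 6.68, 4.17 and 7.43 CPM to 15.4, 10.3, 10.7 and 13.2 CPM (log2FC 0.98 ± 0.21, adjusted p = 0.0232). Without normal rat 3 the log2FC was -2.18 for Fos and -2.07 for Egr1. Myc lost its call without treated rat 4 (adjusted p = 0.0622). Fos lost its call in 3 of the 8 fits without 1 rat (adjusted p up to 0.0793, without treated rat 3). Egr1 lost its call in 4 of the 8 fits without 1 rat (adjusted p up to 0.0844, without treated rat 3).

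Of 14 p53 targets and growth arrest genes 3 rose and 2 fell. Trib1, a pseudokinase, fell from 72.4, 38.7, 43.6 and 50.7 CPM to 22.9, 21.8, 22.9 and 17.8 CPM (log2FC -1.27 ± 0.19, adjusted p = 0.0049), as did Sesn1 (log2FC -0.45 ± 0.091, adjusted p = 0.0183). Phlda3, an inhibitor of Akt (log2FC 0.88 ± 0.18, adjusted p = 0.0177), Ccng1, cyclin G1 (log2FC 0.70 ± 0.18, adjusted p = 0.048), and Gdf15 rose. Of 23 genes of the cell cycle, Ccnd1, cyclin D1 of the G1 phase, was at 118, 149.9, 99.1 and 153 CPM in the normal rats and 287, 234, 333 and 316 CPM in the treated rats (log2FC 1.17 ± 0.16, adjusted p = 0.00332). Mcm5, of the replicative helicase, was at 2.1, 1.98, 2.5 and 2.67 CPM and 4.82, 5.81, 7.6 and 5.27 CPM (log2FC 1.34 ± 0.21, adjusted p = 0.00581). Both rose with the groups apart. Phlda3 lost its call in 4 of the 8 fits without 1 rat (adjusted p up to 0.0611, without normal rat 4). Sesn1 lost its call in 3 of the 8 fits without 1 rat (adjusted p up to 0.0672, without normal rat 4). Ccng1 lost its call in 7 of the 8 fits without 1 rat (adjusted p up to 0.123, without treated rat 3).

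The list with the most genes past the test was that of the cytosolic ribosomal proteins, of which 24 of 69 rose and 0 fell. Their median log2 fold change was 0.374, and all 69 were above 0, against 8016 of all 15877 genes. Rpl41 was at 362, 377, 353 and 336 CPM in the normal rats and 627, 569, 568 and 596 CPM in the treated rats (log2FC 0.72 ± 0.086, adjusted p = 0.00159). Rps18 was at 398, 342, 348 and 321 CPM and 523, 549, 525 and 506 CPM (log2FC 0.58 ± 0.095, adjusted p = 0.00765). Rps27 was at 129, 131, 128 and 129 CPM and 184, 178, 165 and 185 CPM (log2FC 0.46 ± 0.078, adjusted p = 0.00792). The changes were well under 2-fold and the groups apart. Ribosomal protein genes have many near-identical pseudogene copies, so the counts of single members are uncertain. With 1 rat left out, 9 (without normal rat 4) to 22 (without treated rat 1) of the 69 passed, 13 to 16 without normal rats 2 or 3 or treated rats 2, 3 or 4, and none fell.

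Nuclear genes of oxidative phosphorylation leaned the same way, with 69 of 72 above 0, a median of 0.215, 5 that rose and 0 that fell. They were Uqcr10 of complex III (log2FC 0.57 ± 0.11, adjusted p = 0.0125), the ATP synthase inhibitor Atp5if1 (log2FC 0.35 ± 0.090, adjusted p = 0.0459) and 3 genes of complex I. These were Ndufa6 (log2FC 0.43 ± 0.086, adjusted p = 0.017), Ndufa13 (log2FC 0.46 ± 0.099, adjusted p = 0.0247) and Ndufa12 (log2FC 0.33 ± 0.082, adjusted p = 0.0434). Uqcr10 kept its call without any single rat. Ndufa6 lost its call without normal rat 4 (adjusted p = 0.0701). Ndufa13 lost its call in 5 of the 8 fits without 1 rat (adjusted p up to 0.0935, without normal rat 4). Ndufa12 lost its call in 7 of the 8 fits without 1 rat (adjusted p up to 0.13, without normal rat 4). Atp5if1 lost its call in 7 of the 8 fits without 1 rat (adjusted p up to 0.144, without normal rat 4). The number of the 72 that rose went from 1 (without normal rat 4) to 10 (without treated rat 1). RNA quality per rat is not given in the sources used here, and its part in these shifts was not tested.

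Fat cell markers differed in 1 of 4 tested genes. Cidec, a lipid droplet protein, was at 52.4, 56.2, 53.3 and 57.6 CPM in the normal rats and 85.1, 97.9, 118 and 115 CPM in the treated rats (log2FC 0.92 ± 0.11, adjusted p = 0.00159). The summed level of the 8 markers of fat cells was 69.4 to 80.6 CPM in the normal rats and 113 to 179 CPM in the treated rats, without overlap. Cidec made up most of that sum in every rat, so the sum largely repeats Cidec. The part of fat tissue in any result was not tested. Markers of endothelium, the distal convoluted tubule, the inner medulla, adrenal cortex, skeletal muscle, urothelium and red blood cells had 0 genes past edgeR's quasi-likelihood test, with 2, 2, 1, 1, 0, 0 and 0 at an unadjusted p under 0.05 in that order. DESeq2 passed 2 endothelial and 2 distal convoluted tubule genes, and edgeR's exact test 1 endothelial, 2 distal convoluted tubule and 1 inner medulla gene. Urothelial markers summed to 55.2 CPM in normal rat 1 against at most 18.4 CPM in any other rat compared.

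The same genes were read in the other diabetic rats against the same normal rats, so those values are not independent and stand beside these only as values. Against normal, the DN group had 599 genes past both thresholds (3.8% of 15775) and the SIN (40 mg/kg) group 388 (2.47% of 15735). Npas2 had a log2 fold change of -1.58 ± 0.21 (SE) in the DN group, -3.66 ± 0.21 at 20 mg/kg and -2.66 ± 0.26 at 40 mg/kg. Arntl had -1.19 ± 0.20, -3.23 ± 0.26 and -2.76 ± 0.17. Per2 had 0.61 ± 0.15, 1.69 ± 0.13 and 1.46 ± 0.14 in the same order. Hlf had 0.013 ± 0.14, 0.74 ± 0.098 and 0.47 ± 0.10. For each of these 4 clock genes the fold change was smallest in size in the DN group. Clock and Nr1d1 were largest in size there. Clock had -0.84 ± 0.16, -0.57 ± 0.20 and -0.69 ± 0.18, and Nr1d1 had 1.07 ± 0.16, 0.40 ± 0.27 and 0.72 ± 0.19.

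Outside the clock, Anxa13 had log2 fold changes of -5.38 ± 0.37 in the DN group, -6.25 ± 0.38 at 20 mg/kg and -6.26 ± 0.36 at 40 mg/kg. Egf had -1.12 ± 0.17, -1.31 ± 0.13 and -1.39 ± 0.15 in the same order. Slc7a13 had -1.51 ± 0.13, -1.70 ± 0.20 and -1.44 ± 0.19. Fgb had 3.42 ± 0.46, 3.39 ± 0.41 and 3.25 ± 0.52. These 4 genes lay on the same side of normal in all 3 diabetic groups. Ndrg1 had 0.18 ± 0.17, -0.86 ± 0.16 and -0.62 ± 0.17. Col4a1 had 0.13 ± 0.12, -0.65 ± 0.14 and -0.52 ± 0.10. Mx1 had -0.39 ± 0.28, 0.99 ± 0.19 and 0.64 ± 0.48. Of these last 3 genes none passed the test in the DN group against normal (adjusted p = 0.481, 0.488 and 0.34). By the same test at 40 mg/kg against normal, Col4a1 passed (adjusted p = 0.0175), and Ndrg1 (0.0578) and Mx1 (0.47) did not.

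The direct comparison of the treated rats with the DN rats had no gene past an adjusted p of 0.05 by edgeR's quasi-likelihood test among 15724 (0%). There were 2427 at an unadjusted p under 0.05 and 35 past both thresholds by DESeq2. The smallest adjusted p was 0.0585, for Npas2 (log2 fold change -2.08 ± 0.24). Arntl (-2.04 ± 0.31, adjusted p = 0.141), Ndrg1 (-1.04 ± 0.16, 0.141), Mx1 (1.37 ± 0.22, 0.141) and Col4a1 (-0.77 ± 0.13, 0.203) did not pass either. A gene that passed against normal in one diabetic group and not in another is therefore not shown to differ between them.

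**Figure D5:**
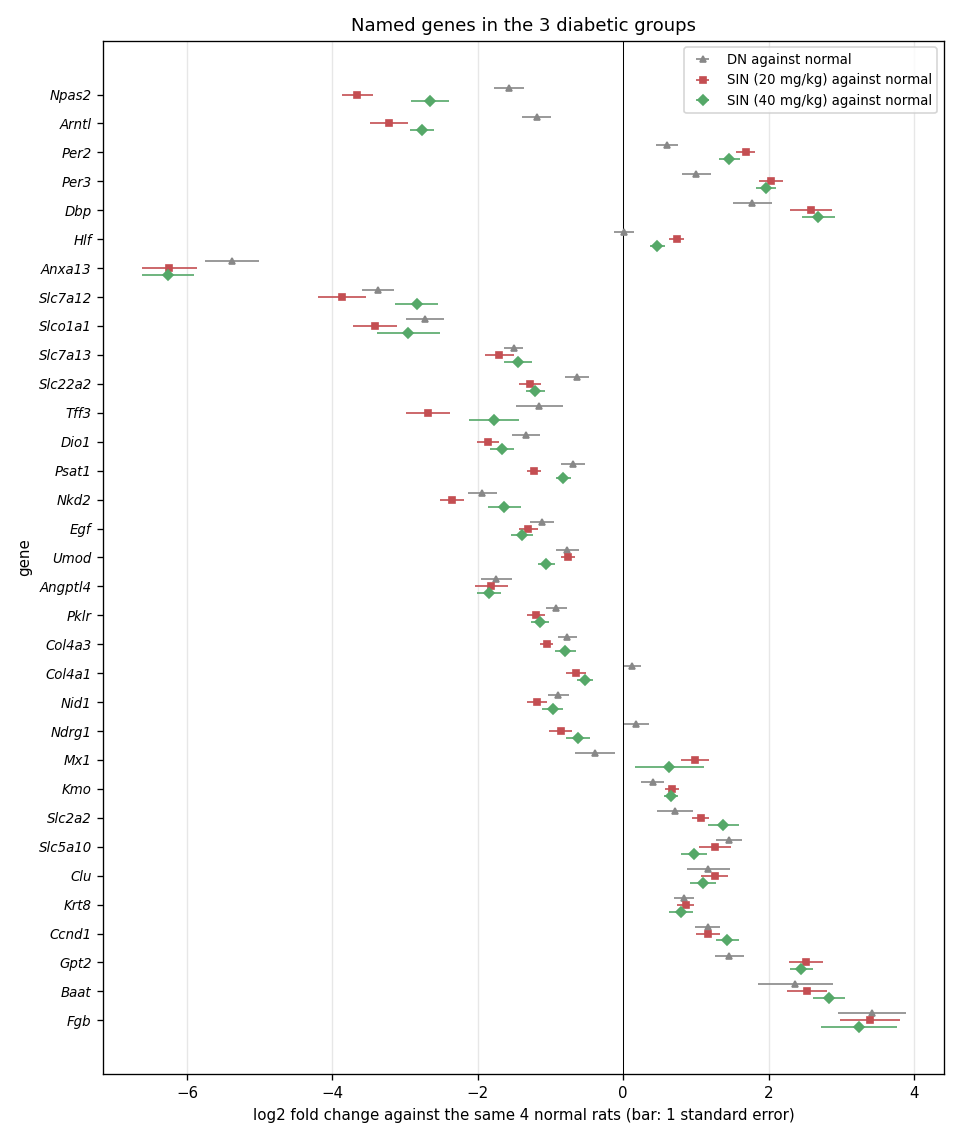
Log2 fold changes (horizontal axis; bars are 1 standard error) of 33 named genes in DN (triangles), SIN (20 mg/kg) (squares) and SIN (40 mg/kg) (diamonds) rats, each against the same 4 normal rats. Npas2 and Arntl lie farther from 0 at both doses than in DN, while Angptl4, Krt8 and Fgb lie at nearly the same place in all 3 groups.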

How the data were processed

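Kidney mRNA of 16 rats, 4 per group, was sequenced as paired-end, oligo(dT)-selected libraries. Per the labels and the study's methods, the authors aligned reads with TopHat and Bowtie to the rat genome Rnor_6.0 with Ensembl genes, and the submitters' processing notes name RSEM and edgeR without versions. The authors deposited estimated counts per gene, of which 74.3% of the values above 0 are whole, so here they were rounded. 4 libraries that no sample record names and 5 columns of group means were not used.

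Genes were tested with edgeR 4.0.16 (R 4.3.3): filterByExpr, TMM, quasi-likelihood F test, two-sided, Benjamini-Hochberg adjustment over all genes tested, on the 8 rats compared. The threshold in the study's methods, an adjusted p under 0.05 and at least 2-fold, was kept. CPM used TMM factors over all 16 rats, and principal components used log2 CPM with a prior count of 2. Alternatives were DESeq2 1.42.0, edgeR's exact test, other normalizations and filters, all 16 rats in one fit, a replicate block and leaving out each rat. Figures were drawn with matplotlib 3.10.9. On simulated counts for this comparison (15662 genes) the test recovered 85.9% of 99 genes changed 4-fold and 57.1% of 98 changed 2-fold, and 3 unchanged genes passed.

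Genes named are the 10 largest rises and falls (with a symbol, past the threshold, groups apart, at least 1 CPM in the higher group), the 10 smallest p-values, members among the 6 smallest p-values of a list, ribosomal and oxidative phosphorylation genes included, and 9 of the study's 10 core targets. Of the list members only those that a sentence describes are printed. 3 genes that passed the test are not reported here and were left out of the lists and figures, but not of the fit or its totals. Lists and genes were chosen with earlier results of these data known. Totals were 19788171 to 25217030 estimated counts per rat. The p-values weigh a difference between the groups against the variation between the rats compared.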

Additional observations from a re-analysis of the deposited data

Results flagged for a closer look

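In 16 of 285 groups of 4 rats (5.61%), over 15 of the genes named above, the highest or lowest rat lay apart from the other 3 by more than Dixon's critical value. Chance alone gives about 1 in 20 groups, so this number by itself is near what chance gives.

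Among clock genes 4 such values belonged to SIN (20 mg/kg) rat 1. Dbp was at 95.4 CPM there (202 to 210.4 in the other 3), Ciart at 2.84 (7.68 to 8.61), Tef at 146 (207 to 212) and Nr1d1, which did not pass the test, at 20.3 (51.2 to 57.4). All 4 values lay on the side of the normal rats, and that of Nr1d1 lay below every normal rat (30.8 to 37.7 CPM). The same rat was low for the lipase inhibitor Angptl4, at 3.01 CPM (6.33 to 6.96).

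SIN (20 mg/kg) rat 2 stood apart for the cytochrome P450 Cyp1a1, at 707 CPM (5.89 to 13.1), and for the anion carrier Slco1a6, at 85.4 (202 to 218). Rat 3 stood apart for the sterol hydroxylase Cyp8b1, at 0.203 CPM (0.0398 to 0.0470), and for Tex101, at 0.709 (0 to 0.0941), both values of few counts.

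Of the normal rats, rat 1 stood apart for Serpina1, at 0 CPM (0.445 to 0.527), Aldoc, at 1.02 (0.871 to 0.889), and Ptgds, at 121 (88.4 to 90.8). Rat 2 stood apart for Tex101, at 11.9 CPM (2.19 to 3.47), and Stat3, at 187 (135 to 143). Rat 3 stood apart for the immediate-early gene Fos, at 25.9 CPM (2.08 to 5.40), and rat 4 for the potassium channel Kcnj10, at 49.7 (54.9 to 55.5).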

How the results depend on the processing

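The count of 394 genes stayed within 1.5 times under every alternative: 523 by DESeq2, 542 by edgeR's exact test, 391 with RLE factors, 393 with upper quartile factors, 391 without a filter, 314 with at least 10 counts in every rat, 403 with all 16 rats, 394 with the other prior count, and 275 to 459 with 1 rat left out. The count of 1009 genes that rose or fell (adjusted p under 0.05, any fold) moved more. It was 1726 by DESeq2, 1437 by edgeR's exact test and 758 with the replicate block. With other factors or filters or all 16 rats it was 915 to 1124. With 1 rat left out it was 551 to 1230. Of the 130 named genes that passed, 78 kept the call and the direction in every alternative, 52 lost the call in at least 1, 33 of them in at least 1 other than leaving out a rat, and 0 changed direction. Of the 13 that did not pass, 5 passed in at least 1 alternative. Direction turned only for genes near 0 that never passed: with 1 rat left out Il18 (-0.00559 as reported) ran from -0.282 to 0.134 and Stat3 (-0.0642) from -0.116 to 0.0598. Il18 was at 0.00796 without normal rat 1, 0.0328 without normal rat 3, and 0.00955, 0.134 and 0.0851 without SIN (20 mg/kg) rats 1, 2 and 4, and Stat3 at 0.0598 without normal rat 2. The difference of the clock score (3.07) was 2.87 to 3.37 with 1 rat left out. For DN against normal (599) leaving out 1 rat gave 306 (without normal rat 4) to 741, with 341 without normal rat 3 and 381 without DN rat 2, and for SIN (40 mg/kg) against normal (388) 259 to 410. For SIN (20 mg/kg) against DN (0 genes) DESeq2 gave 35 genes (29 higher, 6 lower), no filter gave 2 and all 16 rats in one fit gave 5, while RLE factors and every fit without 1 rat gave 0.

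Rats of the normal and SIN (20 mg/kg) groups share replicate numbers only as names: the deviations of same-numbered rats from their group means correlated at 0.000538, 0.155, -0.0450 and 0.0370 over genes. With the replicate block 344 genes were called, 308 of them among the 394, and 27 named genes lost the call. It gave 383 for DN against normal, 450 for SIN (40 mg/kg) against normal, 0 for SIN (20 mg/kg) against DN, and 3.07 for the clock score.

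4 rats a side limit small changes: on simulated data about 2-fold changes were often missed, so a gene that did not pass is not shown to be equal. Genes under 1 CPM rest on few counts. The cause of each change with the setting was not tested, beyond the smaller number of rats where a rat was left out.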
